A study of Mus musculus with 6 samples.

Results

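The SMAD proteins and the SKI corepressors carry and limit the transcriptional response to the TGF-β family, and their transcripts were followed here in primary mesangial cells of the mouse, which contract and give support to the capillaries of the glomerulus in the kidney. The genes were taken by symbol: Smad1, Smad2, Smad3, Smad4, Smad5, Smad6, Smad7, Smad9, Ski and Skil, which gave 10 of the 19642 gene symbols measured, each with 1 row of values. RNA-Seq had been performed on 3 Control libraries and 3 libraries of cells given TGF-β1 (transforming growth factor beta 1) at 10 ng/ml for 72 h. Both groups were cells of passage 3 to 6 kept in medium with 25.5 mM glucose and 20% foetal bovine serum, so the Control cells shared the high glucose level of the treated cells. The strain, sex and age of the mice and the vehicle of the Control cells are not given in the sources used here. Nothing in the labels says that the 3 libraries of a group came from separate cultures or animals, so the p-values below measure only the spread between these libraries, which may be technical.

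In this pathway, type II and type I receptors bound by ligand phosphorylate receptor-regulated SMADs. SMAD2 and SMAD3 serve the TGF-β and activin branch, while SMAD1, SMAD5 and SMAD9 serve the BMP (bone morphogenetic protein) branch. The phosphorylated proteins join SMAD4, the common partner, and move to the nucleus, where they activate or repress genes with other factors. SMAD6 and SMAD7 are the inhibitory SMADs, which block receptors or compete for partners, and SKI and SKIL (also called SnoN) bind SMAD complexes and recruit repressor complexes to their targets. In the kidney, TGF-β1 signalling through SMAD3 is known for its part in fibrosis. The values here are RNA levels, and neither protein level nor phosphorylation was measured.

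Expression was given as FPKM, the fragments of a transcript per kilobase of its length and per M (mega) mapped fragments. Levels of different genes can be compared only as far as each row holds the whole gene, which is not stated. Changes are given as log2 differences of FPKM + 1, TGF-β1 minus Control, which understate the change of low genes. They were tested with limma over the 11898 rows whose mean was 1 FPKM or more, and a gene was called changed at an adjusted p under 0.05. Depth recovered from the smallest steps of the values was 10.05 to 11.08 M mapped fragments per library, assuming fragments of 200 nt. The members rested on about 147.1 (Skil) to 1896.5 (Smad4) fragments in a library, except Smad6, at 79.4 to 597.2 fragments, and Smad9, at 5.0 to 60.2.

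The label of the cells was set against marker genes. Of 10 mesangial markers, Vim (2191 and 3436 FPKM, Control and TGF-β1 means), Acta2 (997.1 and 3887) and Pdgfrb (37.5 and 29.2) were high, whereas Itga8, Des, Rgs5 and Thy1 stayed under 1 FPKM in every library, and Itga8 and Thy1 were listed at 0 in some. The summed level of the 10 mesangial markers was 2881 to 3413 FPKM in Control and 7220 to 7555 with TGF-β1. Vim and Acta2 made up nearly all of this sum in every library, so its rise was that of these 2 genes. Of 5 tested markers, 2 were called higher (Vim and Acta2) and 1 lower, while Tbx18 and Gata3 were not called. The lower marker, Pdgfrb (limma adjusted p = 0.0396), was not called with the replicate number as a block (limma adjusted p = 0.0583). Cspg4 and Rgs5, under the filter, were called higher in the fit of all rows (limma adjusted p = 9.51e-04 and 0.0336). With the block, Rgs5 was not called (limma adjusted p = 0.0651). All 5 endothelial markers found were below 1 FPKM in every library, summing to 0.361–0.468 in Control and 0.299–0.822 with TGF-β1, and Cdh5 and Kdr were listed at 0 in all Control libraries. Among 5 macrophage markers, the summed level was 8.19 to 9.58 FPKM in Control and 2.26 to 3.24 with TGF-β1. Ptprc, the pan-leukocyte antigen, was listed at 0 in Control and did not exceed 0.0448 with TGF-β1, while Csf1r moved from 6.27 to 0.411 and was the 1 of 2 tested markers called lower. The 5 podocyte markers summed to 19.7–24.9 FPKM in Control and 12.6–13.7 with TGF-β1, with Nphs1 under 1, Synpo highest at 12.3 and 7.88, and all 3 tested markers lower. The 6 tubular epithelial markers summed to 125–161 FPKM in Control and 7.54–9.27 with TGF-β1, with Cdh16 highest (129.7 and 6.30), and both tested markers, Cdh16 and Aqp1, were lower. Cdh1 and Krt8, also on this list, stayed at or below 0.173 FPKM. Lrp2 and Krt18, both under the filter, were called in opposite directions in the fit of all rows. Lrp2 was lower, at 1.09 to 1.93 FPKM in Control and 0.212 to 0.245 with TGF-β1 (limma adjusted p = 0.00369). Krt18 was higher, at most 0.386 FPKM in Control and 1.38 to 1.81 with TGF-β1 (limma adjusted p = 0.00143). Calls were common over all genes, with 24.5% of tested rows called higher and 23.6% lower. In the fit of all rows 30.5% were called, so these marker counts are descriptions. Csf1r and Aqp1 passed the filter through Control alone, with treated means of 0.411 and 0.169 FPKM. The part of these marker shifts in the changes of the SMAD and SKI genes was not tested.

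The replicate 2 libraries stood apart. Among 10791 tested protein-coding rows of at least 300 nt, 66 (0.612%) were at least 2-fold lower in replicate 2 than in both other libraries of the group, in Control and with TGF-β1 alike, against 0 rows for replicate 1 and 1 row for replicate 3. The median GC content of these 66 transcripts was 61.4%, against 50.5% over all rows. Over all rows, the rank correlation (Spearman) of GC content with a library's deviation from its group mean differed between the groups. It was -0.088, 0.0046 and 0.102 for Control replicates 1, 2 and 3, and 0.262, -0.386 and 0.320 for those of TGF-β1. Control replicate 2 thus had no such trend over all rows. Smad6 was the 1 member among the 66, and its values are given below with and without replicate 2.

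Of the 10 genes, 9 passed the filter on low values and 5 of these were called changed, 4 higher with TGF-β1 (Skil, Smad7, Smad1 and Smad2) and 1 lower (Smad3). The background was high, since 48.1% of all tested rows were called, 24.5% higher and 23.6% lower, so the share of members called is near it. Groups did not overlap in 6 of the 9, against 59.4% of all tested rows. A call with at least 2-fold change on the log2 scale was made for 2 of the 9, Skil and Smad7, against 13.9% of rows. The median size of the log2 change was 0.51 in the 9 genes and 0.40 over all tested rows, and the median signed change was 0.24 against -0.017. In bulk RNA, fewer cells of a type and less RNA per cell cannot be told apart, and this holds for every change below.

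**Figure D1:**
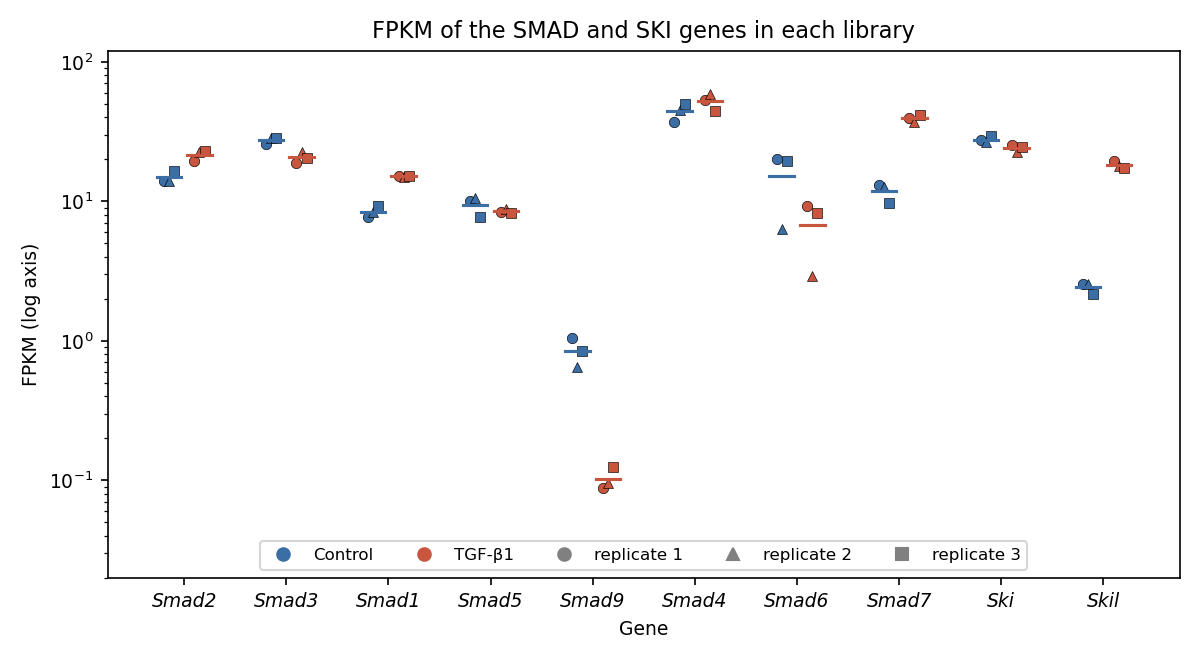
FPKM (log axis) of the 10 SMAD and SKI genes in each of the 6 libraries, with Control and TGF-β1 side by side and a bar at the group mean. Skil moves from 2.16–2.56 to 17.2–19.5 FPKM and Smad7 from 9.75–13.1 to 37.0–41.5, and both replicate 2 libraries lie low for Smad6.

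**Figure D2:**
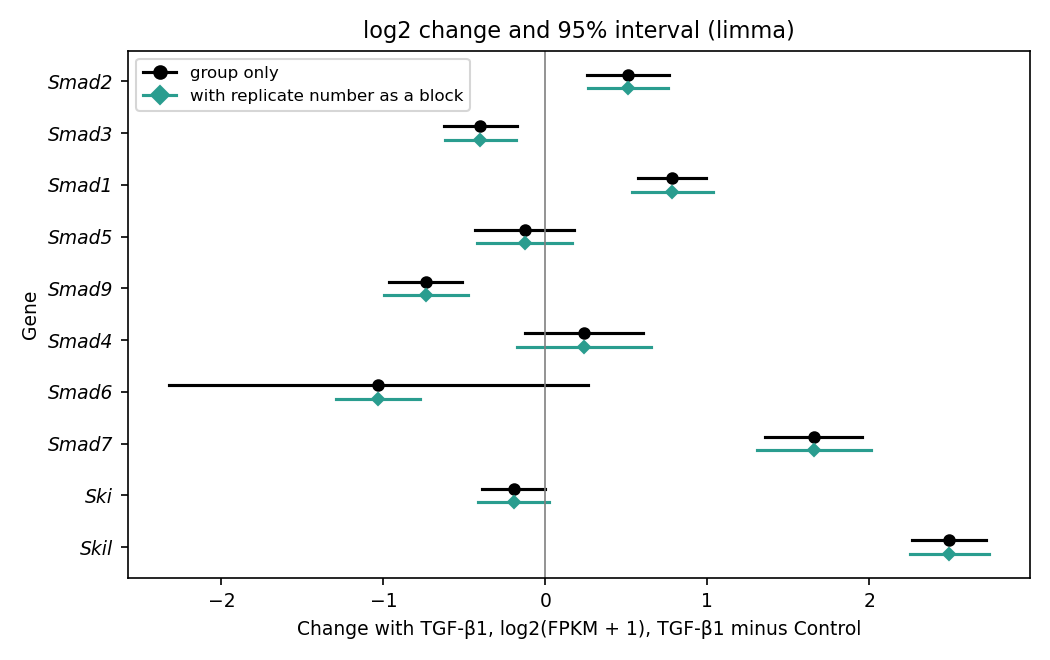
Log2 change of FPKM + 1, TGF-β1 minus Control, for each gene with its 95% interval from limma, without a block and with the replicate number as a block. The interval of Smad6 spans 0 without the block (-2.32 to 0.26) and lies below 0 with it (-1.29 to -0.77).

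Promoter sequences from RefSeq (build GRCm38.p6), 250 bases before to 50 after each start, were available for 6 of the 10 genes in 8 windows. Skil, Smad2, Smad4 and Smad7 had no entry. The windows were searched on both strands for the palindromic SMAD binding element GTCTAGAC, for CAGAC, which is contained in no other motif searched here, and for the GC-rich element GGCGCC. Of all 32851 windows, 0.213% held GTCTAGAC, 49.6% held CAGAC and 11.9% held GGCGCC. Among the 8 windows of the members, GTCTAGAC was in 1, that of Smad6, where it spans bases -4 to 4 around the start. GGCGCC was in 4 of the 8 (Ski, Smad9 and both overlapping Smad5 windows, which share 1 match), and CAGAC in 1 (Smad5). A match is a string of letters and no measured binding, and no match says only that the letters are absent from the window. The windows of Smad6, Smad9 and Smad1 are shown because their RNA levels differed most among the members with an entry, each as the bases before its start (for Smad6 to base 4), 5′ to 3′, with capitals at GTCTAGAC or GGCGCC and none in Smad1.
Smad6, chr9:64022056-64022309, - strand: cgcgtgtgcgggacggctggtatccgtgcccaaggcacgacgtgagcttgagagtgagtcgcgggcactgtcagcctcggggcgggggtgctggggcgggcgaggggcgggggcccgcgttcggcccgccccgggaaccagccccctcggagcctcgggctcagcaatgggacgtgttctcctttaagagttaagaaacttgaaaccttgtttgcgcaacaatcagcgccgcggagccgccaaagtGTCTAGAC
Smad9, chr3:54755332-54755581, + strand: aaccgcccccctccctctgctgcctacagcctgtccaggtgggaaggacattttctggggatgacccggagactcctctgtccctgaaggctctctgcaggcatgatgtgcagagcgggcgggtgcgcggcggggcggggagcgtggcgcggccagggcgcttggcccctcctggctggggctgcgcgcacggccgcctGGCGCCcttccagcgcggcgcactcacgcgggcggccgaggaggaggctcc
Smad1, chr8:79399429-79399678, - strand: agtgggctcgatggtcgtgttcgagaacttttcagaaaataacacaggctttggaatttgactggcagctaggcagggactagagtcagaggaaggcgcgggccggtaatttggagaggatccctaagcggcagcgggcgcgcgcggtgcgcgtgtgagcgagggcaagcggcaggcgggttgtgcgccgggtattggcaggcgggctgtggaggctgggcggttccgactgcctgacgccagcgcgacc

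Among the receptor-regulated SMADs of the TGF-β branch, Smad2 rose and Smad3 fell. Smad2 (chr18:76401234-76465385, + strand, build mm9) had Control levels of 14.08, 14.03 and 16.59 FPKM and treated levels of 19.5, 22.7 and 22.8. All 3 treated libraries lay above all 3 Control libraries, and the log2 change was 0.51 (SE 0.104, limma adjusted p = 0.00825). Smad3 (chr9:63494574-63605801, - strand) was at 25.8, 28.4 and 28.6 FPKM in Control and at 18.9, 22.6 and 20.6 with TGF-β1. Again the groups did not overlap, here with TGF-β1 lower, and the log2 change was -0.40 (SE 0.0935, limma adjusted p = 0.0137). Without TGF-β1 replicate 1, the lowest treated library, it was -0.34 with a limma adjusted p of 0.0520. Smad2 was not called under 2 alternatives, a limma adjusted p of 0.0760 in replicates 1 and 3 alone and 0.0607 with libraries scaled to their protein-coding sum. The ratio of Smad2 to Smad3, both taken per length, was 0.494 to 0.580 in Control and 1.002 to 1.106 with TGF-β1. Smad3 was thus the more abundant in every Control library, and the levels were nearly equal in the treated libraries.

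Of the BMP branch SMADs, Smad1 rose, Smad9 fell and Smad5 was not called. Smad1 (chr8:81862294-81923417, - strand) was at 7.66, 8.40 and 9.21 FPKM in Control and at 15.28, 14.97 and 15.29 with TGF-β1. The treated libraries were all higher, at 1.80 times the Control mean, and the log2 change was 0.78 (SE 0.0874, limma adjusted p = 7.25e-04). Smad5 (chr13:56804371-56843738, + strand) was at 10.0, 10.6 and 7.67 FPKM in Control and at 8.43, 8.80 and 8.22 with TGF-β1. The treated libraries lay inside the Control range, and the log2 change of -0.13 (95% interval -0.43 to 0.18, limma adjusted p = 0.439) was not called. It was -0.045 without Control replicate 2 and -0.26 without Control replicate 3 (limma adjusted p = 0.0595). The ratio of Smad1 to Smad5 was 0.763, 0.790 and 1.20 in Control and 1.70 to 1.86 with TGF-β1.

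Smad9 (chr3:54559504-54605179, + strand), the least abundant of the 10 genes, was under the filter, and its test comes from the same fit over all 19730 rows. It was at 1.05, 0.649 and 0.844 FPKM in Control and at 0.0882, 0.0955 and 0.125 with TGF-β1. All treated libraries were lower, and the Control mean was 8.24 times the TGF-β1 mean. On the log2(FPKM + 1) scale the change was -0.74 (SE 0.0925, limma adjusted p = 0.00226). In that fit 30.5% of all rows were called, 16.0% in the lower direction, and groups did not overlap in 44.1%, while 6 of the 10 members were called and 7 of the 10 did not overlap. The treated values rest on about 5.0, 5.0 and 7.0 fragments, so the size of the fold is imprecise. Smad9 has 1 annotated transcript.

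Smad4, the common partner (chr18:73798663-73863434, - strand), was the most abundant member in both groups. It was at 37.2, 45.1 and 50.2 FPKM in Control and at 52.9, 59.2 and 44.5 with TGF-β1. The groups overlapped, and the log2 change of 0.24 (95% interval -0.12 to 0.60, limma adjusted p = 0.236) was not called. It was between 0.12 (without Control replicate 1) and 0.35 (without TGF-β1 replicate 3) with 1 library left out, 0.14 without TGF-β1 replicate 2, and 0.047 with libraries scaled to the protein-coding sum.

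Of the inhibitory SMADs, Smad7 rose with TGF-β1, and Smad6 was lower within each replicate number. Smad7 (chr18:75527183-75555589, + strand) was at 13.1, 12.7 and 9.75 FPKM in Control and at 39.4, 37.0 and 41.5 with TGF-β1. Every treated library was above every Control library, the means differed 3.31-fold, and the log2 change was 1.66 (SE 0.124, limma adjusted p = 1.62e-04). Smad6 (chr9:63800953-63869866, - strand) gave 19.9, 6.34 and 19.5 FPKM in Control and 9.25, 2.92 and 8.18 with TGF-β1. Control replicate 2 lay between the treated libraries, so the groups overlapped, and the log2 change of -1.03 (95% interval -2.32 to 0.26, limma adjusted p = 0.158) was not called.

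Within each replicate number, Smad6 was lower with TGF-β1, at 0.464, 0.461 and 0.419 of the Control value for replicates 1, 2 and 3. The labels do not say that same-numbered libraries are pairs. With the replicate number as a block the log2 change was -1.03 (95% interval -1.29 to -0.77, limma adjusted p = 0.00250), in a fit that called 45.3% of all rows and 22.4% in the lower direction. In replicates 1 and 3 alone it was -1.10 (limma adjusted p = 0.00612, with 17.1% of rows called lower), and with replicate 2 as a batch term the limma adjusted p was 7.15e-04, with 24.9% called lower. The labels do not set replicate 2 apart. Smad6 is itself 1 of the 66 rows low in it, so these 2 settings are no separate evidence for a fall of Smad6. Without Control replicate 2 the change was -1.53 (limma adjusted p = 0.0448), and without TGF-β1 replicate 2 it was -0.60 (limma adjusted p = 0.376). Each of these fits keeps the low replicate 2 of the other group, which shifts the change, so neither is balanced. Replicate 2 held 32.1% of the mean of replicates 1 and 3 in Control and 33.5% with TGF-β1, while the other 9 genes held 68.5 to 122% there. The promoter window of Smad6, shown above, was the 1 member window with GTCTAGAC. The GC content of the Smad6 transcript is 61.8%, above 97.6% of the 10791 rows. Removing each library's trend with GC content and length left a log2 change of -0.80, with a limma adjusted p of 0.168 without the block and 0.0112 under it.

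**Figure D3:**
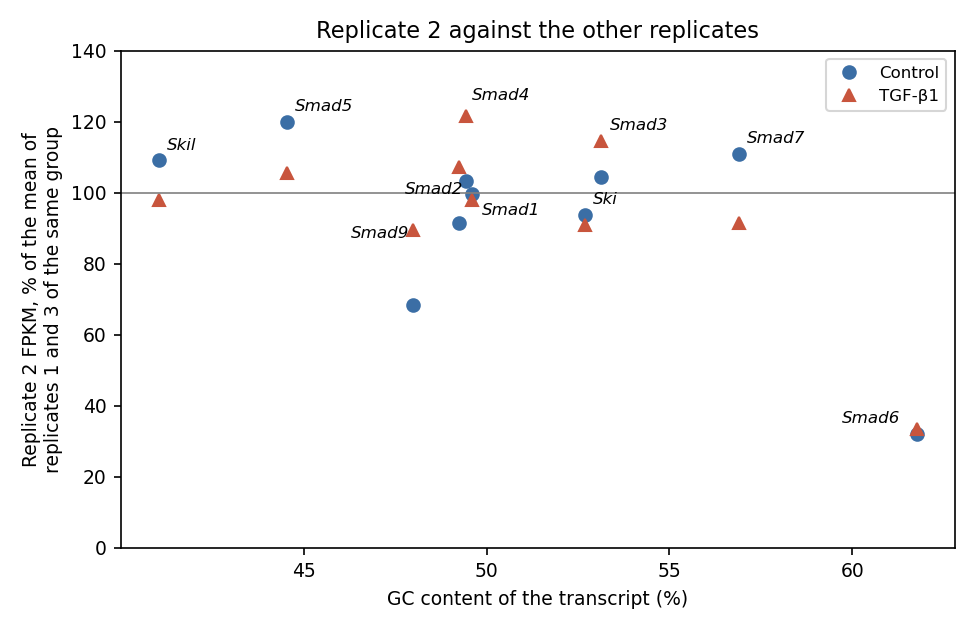
Level of each of the 10 genes in replicate 2 as a percentage of the mean of replicates 1 and 3 of the same group, against the GC content of its transcript in percent, for Control and TGF-β1. Smad6, with the highest GC content, lies at 32.1% and 33.5%, and the others lie at 68.5 to 122%.

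Of the SKI corepressors, Skil rose and Ski was not called. Skil (chr3:30993980-31021499, + strand) had the largest log2 change of the 10 genes, from 2.53, 2.56 and 2.16 FPKM in Control to 19.52, 18.01 and 17.22 with TGF-β1. The treated mean was 7.55 times the Control mean, the groups were far apart, and the log2 change was 2.49 (SE 0.0941, limma adjusted p = 1.54e-05). The study's threshold for an expressed gene is an FPKM of 3, which Skil was below in every Control library and above in every treated one. Ski (chr4:154528184-154596701, - strand) was at 27.3, 26.5 and 29.2 FPKM in Control and at 25.1, 22.5 and 24.4 with TGF-β1. The groups did not overlap, but the log2 change of -0.20 (95% interval -0.39 to -0.0029, limma adjusted p = 0.0869) was not called. It was called under 2 other scalings, at -0.26 (limma adjusted p = 0.0358) when libraries were divided by their 75th percentile and at -0.38 (limma adjusted p = 0.0113) when they were scaled to the protein-coding sum. The ratio of Ski to Skil was 10.3 to 13.5 in Control and 1.25 to 1.42 with TGF-β1. The Ski row is named for a transcript annotated as processed, not coding, and whether the value covers the whole gene is not stated.

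None of the 10 genes overlaps another annotated gene on mm9. With the exception of Smad9 they have 2 to 7 annotated transcripts each, and the table does not state whether a row holds the gene or the named transcript alone.

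Levels within each group were put in order by mean FPKM, and neighbours whose libraries overlap cannot be ranked. In Control, Smad4 (37.2 to 50.2) was highest, then Ski and Smad3, whose ranges overlap, then Smad6 and Smad2, which overlap because of the low Control replicate 2 of Smad6. The range of Smad6 (6.34 to 19.9) also took in those of Smad7, Smad5 and Smad1. Smad7 (9.75 to 13.1), Smad5 (7.67 to 10.6) and Smad1 (7.66 to 9.21) followed, where Smad5 overlapped both others but Smad7 and Smad1 did not overlap each other, then Skil, then Smad9. With TGF-β1, Smad4 (44.5 to 59.2) was followed by Smad7 (37.0 to 41.5), then Ski, Smad2, Smad3 and Skil, each overlapping the next, then Smad1, then Smad5 and Smad6, which overlap, and Smad9. The study divided its differentially expressed genes into 5 equal ranks by level, and here all tested rows were divided in the same way, rank 5 holding the highest. By these ranks 5 of the 9 genes changed rank. The share of all tested rows that changed rank was not computed, so this count is a description and no trait of these genes. Skil went from rank 1 to 4 (percentile 12.7 to 61.2), Smad7 from 3 to 4 (49.7 to 78.7), Smad1 from 2 to 3, Smad2 from 3 to 4 and Smad6 from 3 to 2, whereas Smad3, Smad4, Smad5 and Ski kept theirs. Ranks also depend on the cuts: Smad1 started just under one (percentile 39.7), and Smad3 kept its rank while moving from percentile 72.2 to 64.7.

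The summed FPKM of the 8 SMAD genes was 126 to 142 in Control and 161 to 168 with TGF-β1. Smad2 and Smad3 together made up 31.0 to 33.6% of the sum in Control and 23.4 to 26.9% with TGF-β1, with no overlap. The sum itself was higher with TGF-β1, so a lower share need not be a lower level, and Smad2 rose while Smad3 fell. Smad7 made up 6.85 to 10.2% and then 22.0 to 25.8%, also without overlap, while Smad6 made up 5.02 to 15.5% and then 1.74 to 5.65%, overlapping through replicate 2 of Control. The ratio of Smad7 to Smad6 was 0.658, 2.004 and 0.499 in the Control libraries and 4.25, 12.7 and 5.08 in the treated ones, and it was higher with TGF-β1 in each replicate number. The share of Smad6 and Smad7 together was 25.7, 15.1 and 20.6% in the Control libraries and 29.7, 23.7 and 30.8% in the treated ones, which overlap. The difference of the mean shares was 7.65 percentage points, and 4.97 without Control replicate 2. The BMP branch share (12.4 to 15.6% and 14.2 to 14.7%) and the Smad4 share (28.8 to 35.7% and 27.6 to 35.2%) overlapped between groups. Shares and ratios are descriptions and were not tested.

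**Figure D4:**
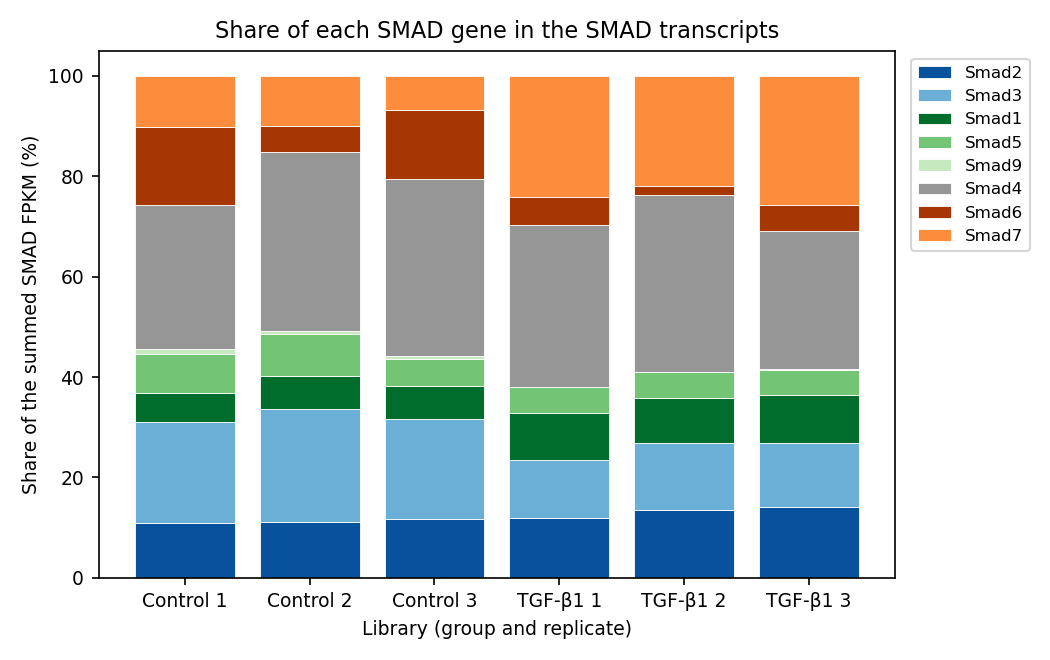
Share of each SMAD gene in the summed FPKM of the 8 SMAD genes (percent, axis from 0), per library. The share of the inhibitory SMADs averages 20.4% in Control and 28.1% with TGF-β1, with overlapping libraries, and that of Smad2 and Smad3 averages 32.1% and 25.7%. The sum is higher with TGF-β1, so a lower share need not be a lower level.

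Other genes of the pathway were taken from lists of receptors, regulators and targets and read from the same limma fit, without a test of any list. Against the 24.5% of rows called higher and 23.6% called lower over all genes, and a median log2 change of -0.017, each list is given by its counts and median.

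Of 13 receptors of the TGF-β family, 12 were found and 8 passed the filter, of which 2 were called higher and 4 lower (median log2 change -0.13). Tgfbr3 (betaglycan), a co-receptor that presents ligand, was at 9.19, 9.50 and 7.79 FPKM in Control and at 1.33, 1.36 and 1.10 with TGF-β1, a log2 change of -2.12 (limma adjusted p = 4.69e-05). Acvr1, a type I receptor that phosphorylates the BMP branch SMADs, went from 14.5, 14.3 and 12.3 to 42.0, 50.6 and 39.8 FPKM, a log2 change of 1.61 (limma adjusted p = 1.46e-04). Both genes overlap an annotated gene on the opposite strand, and strand use is not stated.

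All 15 ubiquitin ligases and deubiquitinases that act on SMADs or their receptors were tested, with 5 higher and 3 lower (median 0.24). The deubiquitinase Usp11 was lower by its log2 change of -2.02 (limma adjusted p = 1.52e-04) and the ligase Nedd4l by -1.73 (limma adjusted p = 2.21e-04). Smurf1 and Smurf2, ligases that SMAD7 brings to the receptors, are named after their values were seen: Smurf1 was at 10.7 to 12.4 FPKM in Control and 19.5 to 22.8 with TGF-β1 (log2 change 0.87, limma adjusted p = 7.58e-04), and Smurf2 at 10.5 to 12.1 and 17.4 to 19.2 (log2 change 0.64, limma adjusted p = 0.00145).

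Of 12 adaptors, phosphatases and inhibitors of receptors and SMADs, 10 were tested, with 5 higher and 2 lower (median 0.39). Pmepa1, which binds receptor-regulated SMADs and limits their phosphorylation, was at 20.6, 16.8 and 19.9 FPKM in Control and rose to 334.8, 171.9 and 358.8, a log2 change of 3.78 (limma adjusted p = 1.65e-04). Its relative Ldlrad4 rose by a log2 change of 1.34 and Fkbp1a, which holds type I receptors inactive, by 1.08, while the endocytic adaptor Dab2 changed by -1.18.

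Of 12 coactivators, 10 were tested, with 2 higher and 1 lower (median -0.052). Runx1 changed by 2.42 on the log2 scale (limma adjusted p = 3.45e-05) and Runx2 by 1.16 (limma adjusted p = 1.60e-04), and both are transcription factors that partner with SMADs. Of 15 other corepressors and SKI partners, 11 were tested, with 4 higher and 1 lower (median 0.14), and the largest change was that of Myc, at 6.77 to 7.94 FPKM in Control and 32.9 to 39.5 with TGF-β1 (log2 change 2.11, limma adjusted p = 3.53e-05). All 6 importins and export factors were tested, with 3 higher and 1 lower (median 0.28). Ipo7, an importin that carries SMADs, changed by 1.20 (limma adjusted p = 6.82e-04).

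Of 10 targets of TGF-β and SMAD3, all were tested and 8 were higher and 1 lower (median 1.71). Ctgf, a matrix-associated growth factor, had a log2 change of 4.63 (limma adjusted p = 9.54e-05). The transcription factor Bhlhe40 changed by 2.88, the collagen gene Col1a1 by 2.04, the latent TGF-β binding protein Ltbp2 by 1.37 and Tgfb1 itself by 1.07. Tgfbi, which codes for a secreted matrix protein, was the 1 target of this list called lower, at 2.66, 4.11 and 3.46 FPKM in Control and 0.504, 0.428 and 0.902 when treated, a log2 change of -1.45 (limma adjusted p = 0.00116). Of 8 targets of the BMP branch, 6 were tested, with 2 higher and 2 lower (median -0.91). Atoh8, a transcription factor, had a log2 change of -3.57 (limma adjusted p = 2.30e-05) and Id2, an inhibitor of differentiation, one of -2.47 (limma adjusted p = 8.43e-06), while the transcription factors Msx2 and Hey1 changed by 1.14 and 1.08. The replicate block turned Id3 (log2 change -1.37, limma adjusted p = 0.137) into a lower call (limma adjusted p = 0.0337). Hey1, Ltbp2 and Col1a2, all called higher, were under 1 FPKM in every Control library and passed the filter through the treated libraries alone. Atoh8 and Tgfbi passed it through Control alone and were under 1 FPKM in every treated library. Ctgf, Col1a1, Ltbp2, Bhlhe40, Runx1, Runx2 and Dab2 also overlap an annotated gene on the opposite strand.

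**Figure D5:**
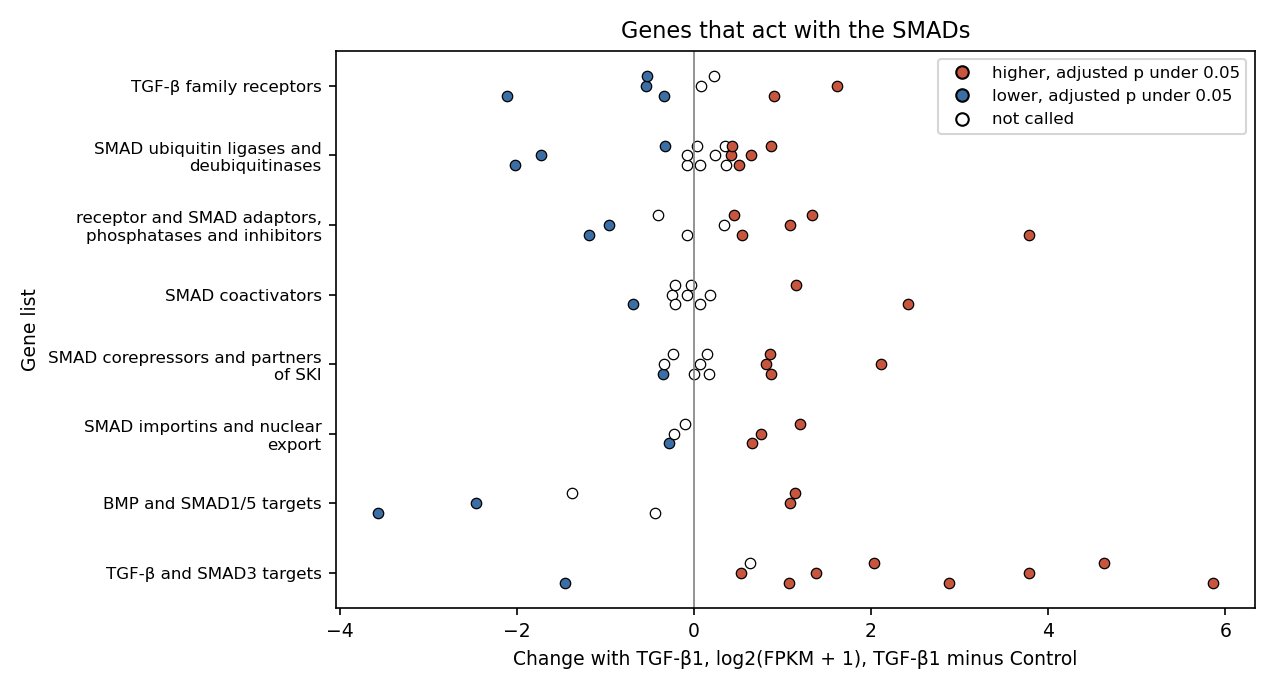
Log2 change of FPKM + 1, TGF-β1 minus Control, for each tested gene of the pathway lists, one row of points per list and filled where called by limma. Most points of the TGF-β and SMAD3 targets lie to the right of 0 (8 of 10 called higher), and the BMP branch targets spread to both sides.

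For each member, the tested protein-coding row with the most similar pattern was found among 10791 rows, by the mean absolute difference over the 6 libraries of log2(FPKM + 1) relative to each row's own Control mean. The closest match was Ak1 for Smad1 (0.0105), then Ing5 for Ski (0.0206), Pcdh19 for Smad5 (0.0208), Max for Smad2 (0.0229) and Atp11a for Smad3 (0.0257). Ssx2ip for Smad4, Camk1 for Smad9, Shmt2 for Smad7 and Col4a4 for Skil were at 0.0465 to 0.0496. The match of Smad9 holds on the log2(FPKM + 1) scale alone, which compresses values under 1: Camk1 was at 43.1 to 51.3 FPKM in Control and 26.6 to 29.6 with TGF-β1, a far smaller fold than that of Smad9. Col4a4 went from 1.37–1.49 FPKM to 11.8–12.6. Smad6 had the most distant match, Ccdc74a (0.180), which was also low in replicate 2, at 3.35 FPKM in Control and 1.10 with TGF-β1 against 9.51 and 11.2, and 2.79 and 3.85, in the other libraries.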

How the data were processed

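Total RNA of the 6 libraries had been sequenced on an Illumina HiSeq instrument. The authors discarded reads of low quality, aligned the others to mm9 with TopHat (TopHat2 2.0.11 per the submitters' processing notes; the methods name another version) and estimated FPKM with Cufflinks. The deposited values are FPKM, 1 column per library, and no scaling between libraries is stated. The authors' own test used DESeq on counts, and the one used here is another.

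The 10 members and the gene lists were chosen with earlier results of these data known. limma 3.58.1 in R 4.3.3 (lmFit, eBayes with a mean-variance trend, two-sided, Benjamini-Hochberg) was fitted to log2(FPKM + 1) with a pseudocount of 1 over 11898 rows that averaged 1 FPKM or more across the 6 libraries, and checked on simulated data. Smad9 was read from the fit of all 19730 rows. Depth came from low FPKM values of 647 to 701 single-transcript genes per library, of which 99.5 to 99.9% were whole fragments within 0.05 (14.5 to 16.7% after jitter).

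Groups and replicate numbers came from the labels. Same-numbered Control and TGF-β1 libraries deviated together from their group means (correlations across genes 0.210, 0.418 and 0.152 for numbers 1, 2 and 3, all over 0.1). The block takes same-numbered libraries as pairs, which is an assumption that the labels do not state. Of the pairs with unlike numbers, Control 1 with TGF-β1 3 (0.201) and Control 3 with TGF-β1 1 (0.127) were also over 0.1, and the rest were negative. Deviations from a group mean cancel out, so with both replicate 2 libraries apart, numbers 1 and 3 correlate positively on the whole, paired or not. These values show that replicate 2 stood apart in both groups, and they cannot show a pairing of numbers 1 and 3. Alternatives were other pseudocounts, filters and scalings, removal of GC and length trends, the replicate block, replicate 2 as a batch and each library left out. Pathway genes are named where called with a log2 change of at least 1. Values of some single genes that this rule selects are not reported here. Coordinates are mm9 gene positions (GENCODE M1), 1-based. Figures used Python 3.11.15 and matplotlib 3.10.9.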

Additional observations from a re-analysis of the deposited data

How the results depend on the processing

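Over 195 alternative values for the 10 genes, 185 kept the direction and the side of the threshold, and 0 reversed. Skil, Smad7, Smad1 and Smad9 kept their calls under every alternative run, and Smad4 and Smad5 were not called under any. The alternatives for Smad9, refitted without the filter, were chosen after seeing the data. The replicate block moved the limma adjusted p of Smad6 (-1.03) to 0.00250 and changed no other member's call, while among the pathway genes it added Tgif2 and Id3 and removed Ncor1, Ranbp3 and Col1a2. The call of Smad6 was also gained with the block and GC and length trends removed (-0.80, limma adjusted p = 0.0112), with replicate 2 as a batch term (-1.03) and in replicates 1 and 3 alone (-1.10). The last 2 settings single out replicate 2, where Smad6 was itself low. Leaving out 1 library at a time gave -1.53 to -0.60 for Smad6, called only without Control replicate 2, and -0.46 to -0.34 for Smad3, not called without TGF-β1 replicate 1. Smad2 lost its call with scaling to the protein-coding sum (0.33) and in replicates 1 and 3 alone (0.44). Ski gained one with 75th percentile scaling (-0.26) and with the protein-coding sum (-0.38). That sum moved the median log2 change of all tested rows to -0.19, so relative to the median these 2 genes shifted less. Without the filter, 3 of 10 genes changed abundance rank instead of 5 of 9. The cause of these shifts was not tested. Some fits with libraries left out held rows with a variance of 0, which limma offset from 0. Low counts limit Smad9, and the intervals of Smad4 and Smad5 do not show that these genes were unchanged.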

Other observations

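Other pathway genes with low replicate 2 libraries are given here as values and were chosen after those values were seen. Junb, an AP-1 transcription factor listed among the TGF-β and SMAD3 targets, was at 36.9, 7.88 and 27.4 FPKM in Control and at 125.2, 1.23 and 125.3 with TGF-β1. It was higher with TGF-β1 in replicates 1 and 3 and lower in replicate 2, and it was not called (limma adjusted p = 0.773). Id1, a target of the BMP branch, was at 39.1, 20.6 and 31.9 FPKM in Control and at 29.1, 11.2 and 30.3 with TGF-β1. The corepressor Ctbp1 was at 67.6, 49.7 and 71.0 FPKM in Control and at 83.6, 39.7 and 82.4 with TGF-β1, so that it too was higher with treatment in replicates 1 and 3 and lower in replicate 2.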
